A study of Mus musculus with 6 samples.

Results

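In germline stem cells (GSC), 1374 single positions had at least 50 percentage points more methylation than the reference, were listed in no table of 4 pluripotent lines, and lay within 50 bp of a position listed in each of those lines. The members were chosen by these values: the GSC difference, the absence from the line tables and the presence of a listed neighbour. They are 1374 of the 18600 GSC hyper positions of at least 50 points with a listed neighbour in each line (7.39%). GSC had 143001 hyper positions of at least 50 points, of which 51453 were unlisted in all 4 lines. The whole series lists 448072 distinct positions.

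The assay was reduced representation bisulfite sequencing, a method that digests the DNA and reads the fragments rich in CpG. It was run on 6 mouse cell lines, all of OG2 strain. OG2 cells carry a fluorescent reporter driven by Pou5f1 regulatory sequence. GSC (1 line) are the cultured form of the stem cells of spermatogenesis, iPSC (2 lines) are induced pluripotent stem cells derived from GSC, gPSC (2 lines) are germline-derived pluripotent stem cells and ESC (1 line) are embryonic stem cells. The labels give no treatment, age, passage number or sex for any line, and the GSC and ESC values rest on 1 line each. The tables leave the reference unnamed. ESC alone has no tables and is taken as the reference of the other 5 libraries, which therefore share it.

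In mammals most cytosine methylation lies on both strands of the palindromic CpG dinucleotide, where a maintenance enzyme copies it after replication. CpG-rich promoters are mostly unmethylated, and methylation there goes with silencing, while gene bodies and intergenic DNA are mostly methylated. Germ cells carry a methylation pattern unlike that of pluripotent cells, and the series title names memory of the origin as its question.

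A position is called hyper where the authors list more methylation than in the reference and hypo where they list less. All differences given are the authors' percentage points, with the deposited sign. That sign carries a limit: over all RefSeq promoter windows, where both cytosines of a CpG were listed, the 2 had opposite signs in 96.8% of 3792 CpG in GSC and in 99.2% to 99.5% in the 4 lines. Whether hyper at a position stands for more methylation of its CpG as a whole is therefore not settled by the tables, and this holds for each hyper and hypo value given here. The tables hold called positions only, with absolute differences of at least 25 points and q-values of at most 0.01. Neither coverage nor methylation levels are in them, so the depth is unknown and no error can be put on a single difference. A position unlisted in a line can have had too small a difference there, or it can have been read too little. What can be measured around the members is the listed neighbours, 1 to 50 bp away. These come from the same line tables in which the rule looked for the members, but the rule did not use their direction or size. The rest of the 18600 positions, 17226 that were listed in at least 1 line, are called the listed counterparts.

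Promoters in which several members lie show what the positions look like in sequence. Of the members, 62 (4.51%) fell in 36 distinct promoter windows of 34 genes (32 distinct sets of members, as some windows overlap), from 250 bp before to 50 bp after a RefSeq transcript start in GRCm38.p6. In these windows 17 members were at the C of a CpG and 45 at its G, counted on the plus strand, and none lay outside a CpG. Members of a cluster, such as the 7 of Ptbp2, all at the G, are not independent. Over all RefSeq promoter windows GSC listed 7464 positions at a C and 7545 at a G, of which 46.4% and 45.8% were hyper. The letters CCGG, a palindrome read the same on both strands, occurred in 35 of the 36 windows, against 52.8% of all 32815 distinct windows. The median window with a member had 22.5 CpG, against 7 over all windows. Both are descriptions. The assay itself reads fragments rich in CpG, and the comparison is with all windows, not with windows that hold other listed positions. Neither value can therefore be read as a trait of the members. The 5 windows printed here, 5′ to 3′ on the strand of the gene, have capitals at each CpG that holds a member. They were picked to show members beside hypo neighbours in all lines (Cyb5r4, Ptbp2), beside neighbours that differed between lines (Camkk1, Speg) and beside hyper neighbours in all lines (Lncpint). The Cyb5r4 window is chr9:87021779-87022078 (plus strand) and the Ptbp2 window is chr3:119783339-119783638 (minus strand). The Camkk1 window is chr11:73018738-73019037 (plus strand), the Speg window is chr1:75375047-75375346 (plus strand) and the Lncpint window is chr6:31218425-31218724 (minus strand).
Cyb5r4: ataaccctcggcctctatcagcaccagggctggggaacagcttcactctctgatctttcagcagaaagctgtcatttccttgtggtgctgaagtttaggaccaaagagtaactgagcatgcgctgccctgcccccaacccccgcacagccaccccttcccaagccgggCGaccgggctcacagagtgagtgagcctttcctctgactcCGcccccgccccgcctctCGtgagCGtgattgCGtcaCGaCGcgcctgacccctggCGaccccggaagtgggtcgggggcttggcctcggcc
Ptbp2: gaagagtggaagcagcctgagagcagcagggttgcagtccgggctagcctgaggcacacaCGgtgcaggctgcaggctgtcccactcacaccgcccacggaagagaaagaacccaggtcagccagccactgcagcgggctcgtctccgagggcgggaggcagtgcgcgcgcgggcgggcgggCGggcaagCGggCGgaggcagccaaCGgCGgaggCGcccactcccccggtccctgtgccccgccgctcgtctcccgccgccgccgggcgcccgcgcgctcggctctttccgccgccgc
Camkk1: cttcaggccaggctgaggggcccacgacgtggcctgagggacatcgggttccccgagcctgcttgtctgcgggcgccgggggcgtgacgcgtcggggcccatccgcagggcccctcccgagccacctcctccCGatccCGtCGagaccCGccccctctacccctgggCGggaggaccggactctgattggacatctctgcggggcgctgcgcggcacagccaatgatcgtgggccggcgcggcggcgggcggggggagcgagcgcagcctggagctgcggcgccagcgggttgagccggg
Speg: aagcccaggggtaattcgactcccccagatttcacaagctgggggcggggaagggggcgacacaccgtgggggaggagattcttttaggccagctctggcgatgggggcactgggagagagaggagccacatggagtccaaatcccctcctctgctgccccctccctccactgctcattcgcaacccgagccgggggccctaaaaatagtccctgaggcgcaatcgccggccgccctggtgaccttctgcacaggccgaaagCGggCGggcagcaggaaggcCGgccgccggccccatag
Lncpint: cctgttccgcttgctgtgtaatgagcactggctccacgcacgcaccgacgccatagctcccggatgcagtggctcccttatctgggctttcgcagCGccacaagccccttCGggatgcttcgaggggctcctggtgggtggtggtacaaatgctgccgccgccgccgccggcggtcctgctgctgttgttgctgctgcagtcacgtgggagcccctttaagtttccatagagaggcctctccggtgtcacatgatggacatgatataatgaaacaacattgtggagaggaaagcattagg

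Cyb5r4, which encodes a cytochrome b5 reductase, had 8 members in its promoter window, from 81 bp before to 15 bp after the start. Their GSC differences were 84.6, 63.6, 69.5, 72.7, 72.7, 70.4, 72.7 and 67.6 points. Of the 8 members, 7 had a GSC hypo position 1 bp away, at the other cytosine of the same CpG. At the member 41 bp before the start the GSC difference was 63.6 points and at its partner it was -63.6 points. At that partner all 4 lines were listed at -78.9 points. Over the 8 members, the mean difference of the neighbours was -82.0 and -82.0 points in iPSC 1 and 2, and -80.0 and -82.0 points in gPSC 1 and 2.

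Ptbp2 encodes an RNA-binding splicing regulator of neurons and male germ cells. Its 7 members lay between 190 and 34 bp before the start, with GSC differences of 50.2 to 56.5 points. Each of the 7 had a GSC hypo position 1 bp away. The neighbours averaged -58.5 and -55.7 points in iPSC 1 and 2, and -58.0 and -54.8 points in gPSC 1 and 2. At both genes the partners 1 bp from these members were thus hypo in GSC and in every line.

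Camkk1 encodes a kinase that activates calcium/calmodulin-dependent kinases. Its 5 members, 117 to 82 bp before the start, had GSC differences of 60.4 to 63.9 points, and again each had a GSC hypo position 1 bp away, at -63.6 or -63.9 points. The neighbours averaged -72.3 points in iPSC 1 and -72.3 in iPSC 2, against -7.27 in gPSC 1 and 10.2 in gPSC 2. The iPSC mean rests on 1 position, 73 bp before the start. That position was also hypo in GSC (-72.3 points) and gPSC 1 (-58.0 points), and was unlisted in gPSC 2. Between 168 and 132 bp before the start, gPSC 1 and gPSC 2 listed pairs of opposite sign 1 bp apart, for example -27.7 and 27.7 points in gPSC 1 and -46.9 and 46.9 points in gPSC 2.

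Speg encodes a kinase of striated muscle. Its 3 members, 13, 17 and 33 bp after the start, had GSC differences of 58.5, 76.3 and 72.7 points with no opposite GSC position 1 bp away. At 40 bp after the start all libraries were listed as hyper, at 50 points in GSC, 42.6 and 34.3 in iPSC 1 and 2, and 34.8 and 40.9 in gPSC 1 and 2. At the adjoining base, 39 bp after the start, iPSC 2, gPSC 1 and gPSC 2 were listed at -41.4, -38.4 and -55.6 points.

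Lncpint is a long non-coding RNA gene. Its 2 members, 155 and 140 bp before the start, had GSC differences of 66.3 and 55 points. The neighbours of these members averaged 46.4 and 33.7 points in iPSC 1 and 2, and 38.5 and 40 points in gPSC 1 and 2. The position 130 bp before the start was hyper in every library, at 57.7 points in GSC, 50 and 38.5 in iPSC 1 and 2, and 38.4 and 40 in gPSC 1 and 2.

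**Figure D1:**
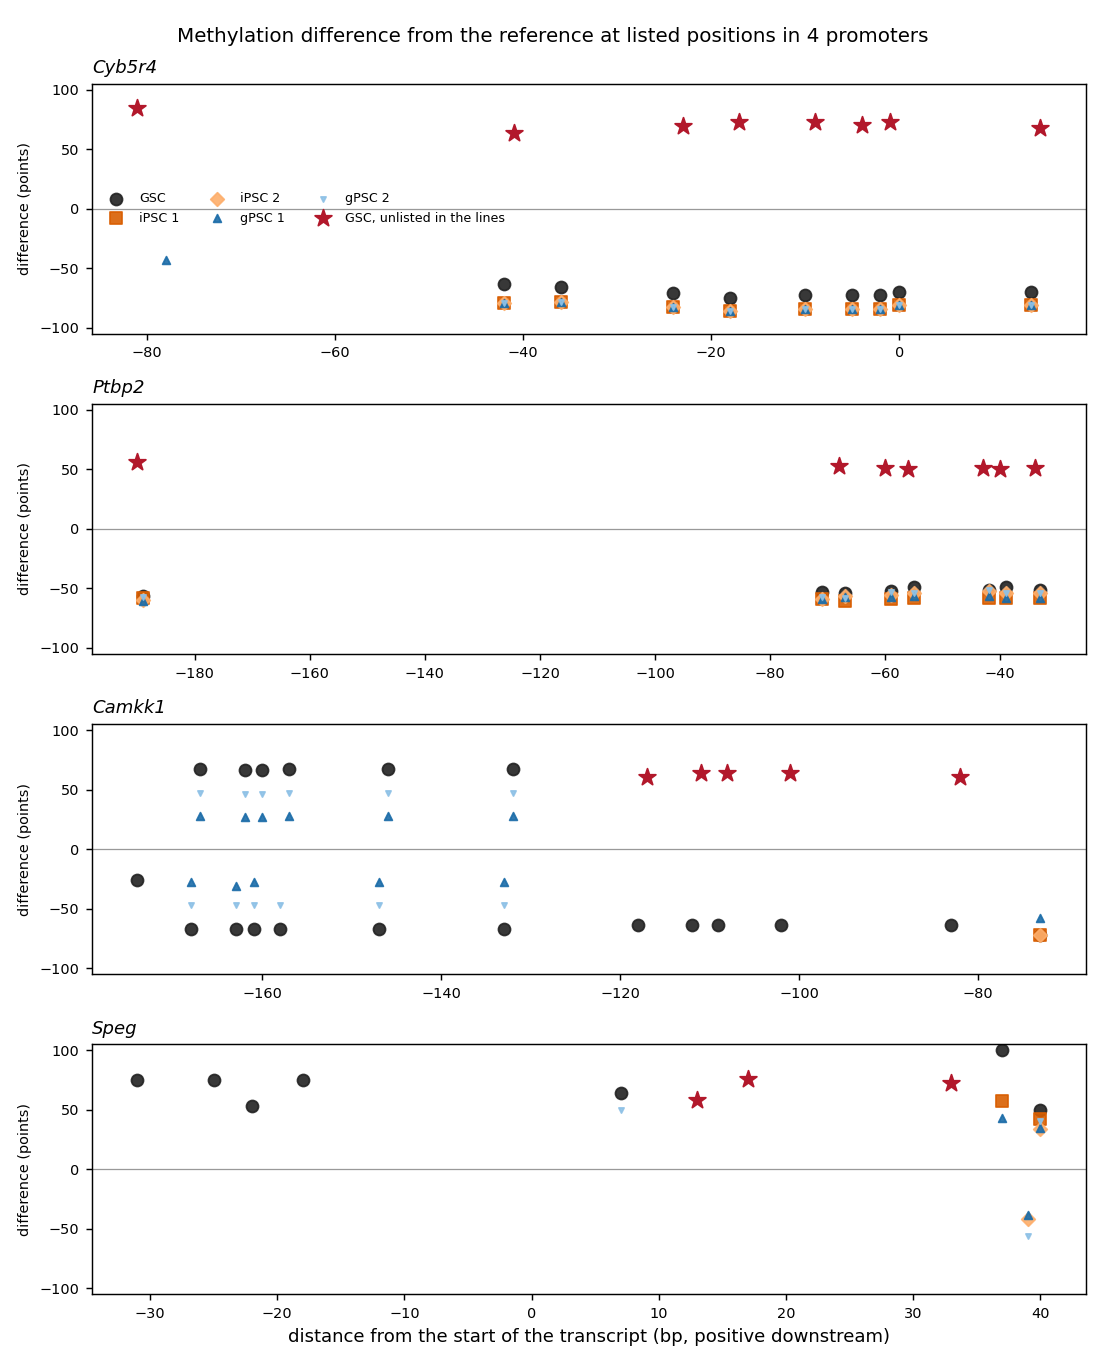
Methylation difference from the reference (percentage points, y axis) against distance from the transcript start (bp, x axis) at the listed positions of 4 promoters; red stars are members, listed in GSC alone, and the other symbols are positions of GSC and of the 4 lines. In Cyb5r4 and Ptbp2 the members lie above 50 points and the positions beside them below 0 in GSC and in the lines, and in Camkk1 the GSC positions form pairs of opposite sign.

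Hypo positions are common in promoters. Over all RefSeq promoter windows, hyper positions made up 46.1% to 49.4% of those listed at a C in the 4 lines. At a G it was 45.7% to 53.3%. The signs beside members in such windows can therefore not be read as a trait of the members. Counting windows that hold the same members once, the neighbours' mean was below 0 in all 4 lines in 14 of 32, above 0 in all 4 lines in 5, and differed in sign between lines in 13. Those below 0 in every line include a single member that lies in overlapping windows of Nup98, a nuclear pore gene, and Pgap2 and had 75.9 points in GSC. Its neighbours averaged -74.3, -75.9, -72.0 and -76.7 points in iPSC 1, iPSC 2, gPSC 1 and gPSC 2. Rsl24d1, a ribosome assembly gene, had 1 member at 67.0 points and neighbours at -65.8, -65.8, -62.6 and -64.4 points in the same lines. Banf1, which encodes a chromatin-binding protein of the nuclear envelope, had 1 member at 56.7 points and neighbours at -70.5, -71.0, -69.4 and -67.1 points. These 3 members also had an opposite GSC position 1 bp away.

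Over all 1374 members, the listed neighbours were hyper in every line less often than around the listed counterparts. The neighbours of 725 members were all hyper in all 4 lines (52.8%; 95% Wilson interval 50.1 to 55.4%), against 14745 of the 17226 listed counterparts (85.6%; interval 85.1 to 86.1%). They were all hypo in all 4 lines for 77 members (5.60%; 4.51 to 6.95%), against 190 listed counterparts (1.10%; 0.958 to 1.27%). The other 572 members (41.6%) had neighbours of both directions, within a line or between lines, against 13.3% of the counterparts. The intervals cover counting error only and treat positions as independent, although neighbouring positions share reads, so they are too narrow. No test was made over positions. Each counterpart was itself listed in at least 1 line, and 9046 of the 17226 were hyper in all 4 lines. As neighbouring positions share reads, the contrast between members and counterparts is not independent of the rule. It is given as a description, here and in the comparisons of neighbours below.

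In each line the order was the same. The neighbours of the members were all hyper for 61.9% and 66.1% of members in iPSC 1 and 2, and 68.3% and 73.0% in gPSC 1 and 2, against 90.5%, 90.9%, 92.9% and 93.0% of the listed counterparts in the same lines. They were all hypo for 19.7%, 11.8%, 10.4% and 12.7% of members in these lines. The mean neighbour difference over members was 22.1 and 27.1 points in iPSC 1 and 2, and 31.9 and 32.9 points in gPSC 1 and 2, against 53.0, 52.1, 56.7 and 54.8 points over the listed counterparts. Over all positions of the line tables, 82.4% and 78.2% were hyper in iPSC 1 and 2, and 82.0% and 87.2% in gPSC 1 and 2.

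**Figure D2:**
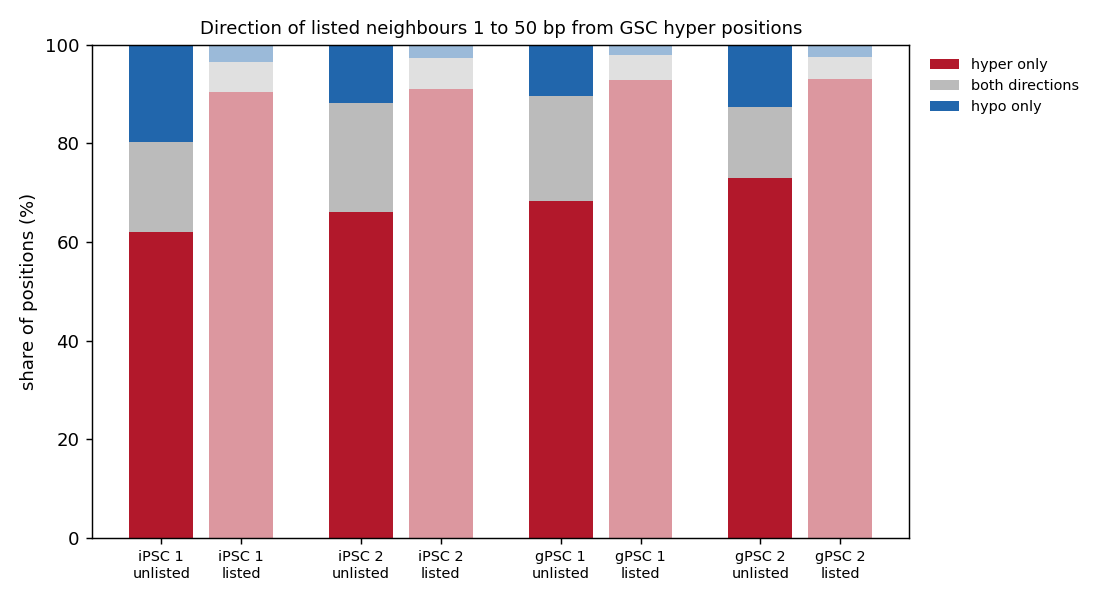
Share of positions (%, y axis) whose listed neighbours 1 to 50 bp away in a line were all hyper (red), of both directions (grey) or all hypo (blue); for each line the left, full-colour bar is the 1374 members (unlisted) and the right, pale bar is the 17226 counterparts (listed). The red part is 61.9% to 73.0% for members and 90.5% to 93.0% for counterparts.

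Where the neighbours were all hyper, they were also smaller beside members. Their median difference was 49.7, 46.6, 49.7 and 52.1 points in iPSC 1, iPSC 2, gPSC 1 and gPSC 2 beside members, against 59.5, 56.9, 61.5 and 58.4 points beside the listed counterparts. Of these all-hyper members, 27.5%, 35.6%, 26.5% and 23.7% had a mean neighbour difference under 40 points in these lines, against 15.1%, 18.5%, 13.0% and 14.4% of the counterparts. The members thus lay more often beside differences nearer to the 25 points that a listed position needs. Whether a member was unlisted because of a small difference or of too few reads was not tested, as the tables do not hold unlisted positions.

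iPSC and gPSC lines were compared over lines, 2 against 2. The share of members with all-hyper neighbours was 64.0% ± 2.93 in the iPSC lines, against 70.6% ± 3.35 in the gPSC lines (mean ± SD, n = 2 each), a difference of -6.62 points (two-sided exact permutation p = 0.33, the smallest that 2 against 2 lines allow). The mean neighbour difference was 24.6 ± 3.56 points in the iPSC lines, against 32.4 ± 0.688 points in the gPSC lines (mean ± SD, n = 2 each), a difference of -7.77 points (two-sided exact permutation p = 0.33). The values of the 2 kinds did not overlap in either measure. Nor did they for the listed counterparts, where the same differences were -2.27 and -3.17 points. The design cannot reach a p under 0.05, and the difference was not tested against that of the counterparts.

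The direction of the nearest listed position changed with its distance. Where it lay 1 bp from the member, it was hyper for 26.2% of 122 members in iPSC 1, 35.8% of 137 in iPSC 2, 36.2% of 130 in gPSC 1 and 26.8% of 112 in gPSC 2. The mean difference of that nearest position was -35.0, -26.2, -26.1 and -35.6 points in the same lines. From 2 to 5 bp away it was hyper for 74.6%, 82.3%, 85.7% and 84.7% of members, and from 31 to 50 bp away for 74.9%, 80.3%, 82.5% and 85.2%. The listed counterparts showed the same step, at 45.3%, 46.3%, 50.2% and 50.4% at 1 bp and at 95.4%, 96.7%, 97.8% and 97.3% from 31 to 50 bp.

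**Figure D3:**
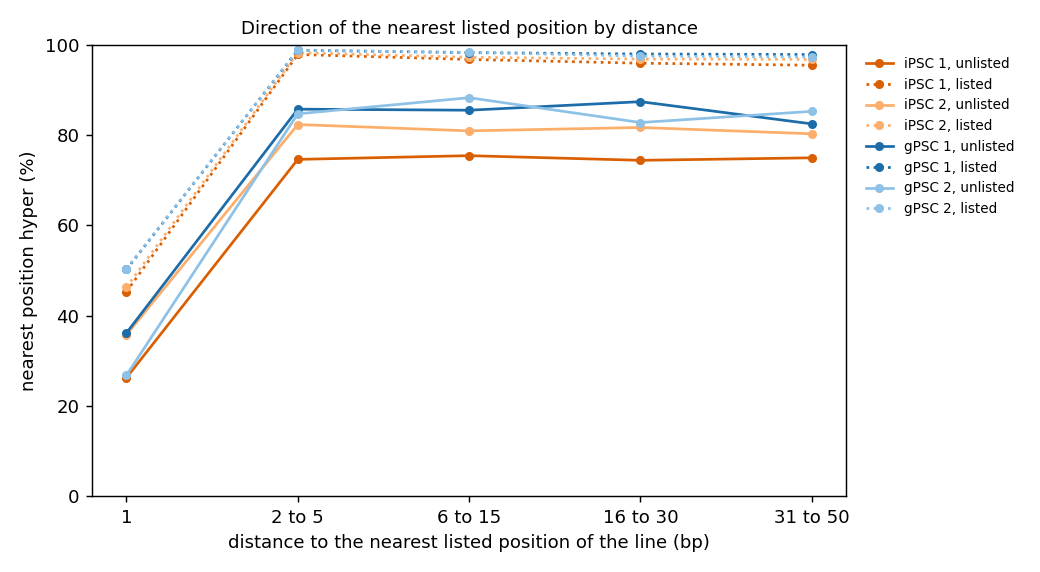
Share of positions whose nearest listed position in a line was hyper (%, y axis) by its distance (bp, x axis); solid lines are the members (unlisted) and dotted lines the listed counterparts, in each of the 4 lines. At 1 bp the solid lines are between 26.2% and 36.2%, and from 2 bp on they are above 74%.

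Opposite signs at adjoining bases were common in all tables. Over all RefSeq promoter windows, the places where sequence could be read, 87.3% of the 4342 GSC pairs 1 bp apart were the C and G of a CpG. Of the opposite CpG pairs there, the C was the hypo one in 48.1% in GSC and in 50.6% to 52.7% in the 4 lines, so neither base went with one sign. Of the pairs of listed positions 1 bp apart, 63.3% had opposite signs in GSC (19802 of 31286). The shares were 83.7% and 87.0% in iPSC 1 and 2 and 86.7% and 79.3% in gPSC 1 and 2. Of the opposite pairs in GSC, 88.1% summed to within 5 points of 0. Among the members, 91 (6.62%; 5.43 to 8.06%) had a GSC hypo position 1 bp away, against 453 listed counterparts (2.63%). A GSC hyper position 1 bp away was more frequent in both sets, at 167 members (12.2%) and 1322 listed counterparts (7.67%). In 58 of the 91 (63.7%) both differences summed to within 5 points of 0. Of these 91 members, 38 (41.8%) had all-hypo neighbours in every line and 1 had all-hyper neighbours in every line. The 38 include 7 at Cyb5r4, 7 at Ptbp2 and 5 at Mettl9, each 1 cluster, so they are not separate cases. Of the other 1283 members, 39 (3.04%) had all-hypo and 724 (56.4%) all-hyper neighbours in every line. The 91 members formed 93 pairs with a GSC hypo position 1 bp away, and in 49 pairs that position was hypo in all 4 lines. Such a position counts among the member's own neighbours, so this split rests in part on the pairs themselves. It was not counted for the counterparts. The strand column holds plus at every position, the G of a CpG included, so it does not tell the strands apart. Whether the signs were assigned as the column says was not tested, and the counts of all-hyper and all-hypo neighbours rest on them.

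The GSC neighbours of the members were mostly hyper themselves. A GSC position other than the member was listed within 50 bp for 1329 members (96.7%). All such positions were hyper for 1160 members (84.4%), against 93.5% of the listed counterparts, and at least 1 was hypo for 169 (12.3%), against 4.35%.

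For 983 members (71.5%) a single position within 50 bp was listed in all 4 lines, so that one site can be read in every library. It was hyper in all 4 lines beside 793 members (57.7%) and hypo in all 4 beside 190 (13.8%), and no such site had lines of different sign. Among the listed counterparts 14902 (86.5%) had such a site, hyper in all 4 lines beside 14368 (83.4%) and hypo beside 534 (3.10%). None of these had lines of different sign either. Of the 793 hyper sites beside members, 718 were hyper in GSC too (90.5%, against 96.3% beside counterparts) and 75 were unlisted there. At those 718 sites the median difference was 77.3 points in GSC, 51.2 and 50.4 in iPSC 1 and 2, and 54.1 and 56.8 in gPSC 1 and 2. At the like sites of the listed counterparts it was 75.7 points in GSC and 61.9, 58.8, 64.2 and 62.1 points in the 4 lines. By the deposited sign, sites hyper in GSC and in all 4 lines were thus about as far above the reference in GSC beside members as beside counterparts. In each line they were less far above it beside members. Of the 190 hypo sites beside members, 90 were hypo in GSC (47.4%, against 69.1% beside counterparts). Another 18 were hyper in GSC (9.47%, against 2.81%) and 82 were unlisted (43.2%, against 28.1%). The medians of the 190 were -58.4, -54.1, -52.7 and -53.7 points in the 4 lines, and those of the 90 in GSC were at -54.5 points.

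Among the members themselves the GSC difference had a median of 65.3 points, with quartiles of 55.6 and 80.8 points, and 117 members (8.52%) were at 100 points. The listed counterparts had a median of 73.1 points. These values follow from the rule and are given as a description. The median of the authors' p-value was also weaker for members, at 6.42 on the -log10 scale against 12.1 for the listed counterparts. Members beside all-hyper neighbours in every line had a median of 69.9 points and 5.13 on that scale, and members beside all-hypo neighbours had 61.8 points and 8.85. At the 50-point limit itself, 52 members had exactly 50 points, 315 lay from 50 to 55 points and 341 positions from 45 to 50 points met the rest of the rule. The 5 nearest below the limit had 49.9 points, and their neighbours ranged from -51.7 to 63.0 points in iPSC 1.

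The members were scattered. Joined where at most 200 bp apart, they formed 1008 clusters, of which 783 held 1 member, 146 held 2 and 79 held 3 or more. Of the clusters, 15 held at least 5, and the largest held 9. The authors' feature column put 225 members in a promoter (16.4%; 14.5 to 18.4%), against 9.00% of the listed counterparts. It put 331 in a gene body outside a promoter (24.1%, against 23.8%) and gave no feature for 818 (59.5%, against 67.2%). The promoter share was 39.0% of the 77 members beside all-hypo neighbours, 8.41% of the 725 beside all-hyper neighbours and 23.4% of the other 572. The 77 form 51 clusters, and their 30 promoter members include 8 at Cyb5r4 and 5 at Mettl9, each 1 cluster. The 39.0% thus does not rest on separate places, and no such split of the counterparts is given here. By coordinates in RefSeq, 925 members (67.3%) lay inside a gene, against 53.4% of the counterparts, and 427 of these had no feature in the authors' column. Chromosome 7 held 9.53% of members and 6.19% of counterparts, chromosome 11 held 9.02% and 6.19%, and the X chromosome held 4.15% and 5.89%.

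By that gene table, 751 named genes contained a member or lay nearest to one. Of these, 71 had at least 3 members and 547 had 1. Around the 20 genes with the most members, the neighbours in the lines took 3 forms. They were all hyper at Csmd1, at Vstm2a and at 4 of the 5 members of Cux2, all hypo at Cyb5r4, Ptbp2 and Mettl9, and of both directions or different between lines at most others.

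Csmd1, which encodes a large membrane protein known as a complement regulator in the brain, had 4 members in 2 clusters inside the gene. Their GSC differences were 90.9, 100, 100 and 91.0 points. The neighbours averaged 40.1 and 40.5 points in iPSC 1 and 2, and 50.5 and 38.3 points in gPSC 1 and 2. Cux2, a homeobox regulator of upper-layer cortical neurons, had 5 members at 55.5, 58.0, 55.9, 59.3 and 60.3 points, with neighbours at 34.6, 34, 38.9 and 37.2 points in the same lines. At both genes these means of the 4 lines lay close together, though not at each member. Beside the Cux2 member at 121994209 the neighbours averaged -0.567 and 3.58 points in iPSC 1 and 2, and 30.9 and 4.81 in gPSC 1 and 2. The means were below the members' GSC values, but members were chosen for high GSC values and the neighbours are other positions. The 4 members assigned to Vstm2a lay at least 101679 bp from it, with GSC differences of 51.7 to 100 points and neighbours at 73.8, 37.6, 72.6 and 53.6 points.

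Mettl9, which encodes a methyltransferase that modifies histidines in proteins, had 5 members at 50, 50, 51.6, 50 and 50.9 points in GSC, all near the limit and each with a GSC hypo position 1 bp away. Its neighbours averaged -32.1 and -32.1 points in iPSC 1 and 2, and -30.6 and -32.1 points in gPSC 1 and 2, from 1 position in each line.

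Zbtb45, a BTB and zinc finger protein gene, had the largest cluster, 9 members over 71 bp of chromosome 7 (13007798 to 13007869), at 60 to 79.7 points in GSC. No member there had an opposite GSC position 1 bp away. The neighbours averaged -75.9 points in iPSC 1 and -74.3 in iPSC 2, against -2.47 in gPSC 1 and -0.694 in gPSC 2. The iPSC values are 1 position, 13007845, which was also hypo in gPSC 1 and gPSC 2, at -69.0 and -69.5 points. The base before it was hyper at 72.0 points in GSC, 69.2 in gPSC 1 and 68.1 in gPSC 2, and was unlisted in both iPSC lines. The iPSC and gPSC means at Zbtb45 thus differ while the position listed in all 4 lines was hypo in each.

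Hcn2, a pacemaker channel gene, had 6 exonic members at 55.6 to 81.2 points in GSC. The 28 GSC positions listed in and around this cluster were all hyper, with a mean of 74.6 points. iPSC 1 listed 12 hyper and 16 hypo positions there, and iPSC 2 listed 6 and 8, while gPSC 1 listed 17 and 1 and gPSC 2 listed 8 and 1. The neighbours averaged -2.12 points in iPSC 1 and -5.84 in iPSC 2, against 30.6 in gPSC 1 and 30.2 in gPSC 2. The iPSC positions again fell in pairs of opposite sign, such as -26.0 and 35.3 points in iPSC 1 and -29.6 and 32.8 points in iPSC 2 at 1 such pair, of which gPSC 1 and gPSC 2 listed the second position alone, at 30.1 and 28.9 points.

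Gene by gene, the other clusters show how few listed positions a mean can rest on. Gjb1, the connexin 32 gene on the X chromosome, had 6 members at 53.8 to 78.4 points. A pair of adjoining positions beside them was listed as -59.1 and 53.0 points in iPSC 1, -55.4 and 54.3 in iPSC 2 and -51.7 and 57.5 in gPSC 1, and as 49.7 points at the second alone in gPSC 2. Mxra7 had 5 members at 83.9 to 89.0 points, and Dyrk1b, a protein kinase gene, had 5 at 54.1 to 85.7 points. Jph3, a junctional membrane protein gene of neurons, had 6 at 51.5 to 87.0 points, with neighbours at -29.6, -0.375, -46.0 and -39.1 points in iPSC 1, iPSC 2, gPSC 1 and gPSC 2. The 6 members nearest to Skor1, a transcriptional corepressor gene 5155 bp away, all had 54.5 points, and their neighbours averaged -0.168, 68.8, -0.0366 and -69.0 points in these lines. On chromosome 3, from 143101025, 6 members had 50.5 points each, 60272 bp from the nearest annotated gene, and their neighbours averaged -70.0, -1.27, 0.816 and -88.1 points. On the X chromosome, from 109604101, 5 members at 52 to 100 points had hyper neighbours in every line, at 96.5, 50.2, 46.3 and 78.2 points.

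Pias4, a SUMO ligase gene, had 9 members at 50.2 to 82.1 points, 5 of them inside the gene, with neighbours at -10.5, 33.8, 33.1 and 29.3 points in iPSC 1, iPSC 2, gPSC 1 and gPSC 2. Pax5, the B-lineage regulator, had 5 members, 4 at 51.2 and 1 at 72.6 points, each beside a GSC hypo position at -51.2 points. Its neighbours averaged -63.9, 0.794, 17.5 and 69.0 points in these lines. Evpl, an epidermal envelope gene, had 4 members at 83.0 to 94.7 points, with neighbours at -71.3, 4.93, 66.0 and -68.2 points. Shank3, a postsynaptic scaffold gene, had 4 at 65.6 to 91.0 points, with neighbours at 7.85, 65.6, 46.0 and 15 points, and Zfp579 had 5 at 51.2 to 88.7 points, with neighbours at 15.4, 5.87, 11.8 and 54.7 points. At Pax5 the neighbours' means lay far apart between the 2 lines of each kind, and at Evpl they differed in sign within each kind.

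**Figure D4:**
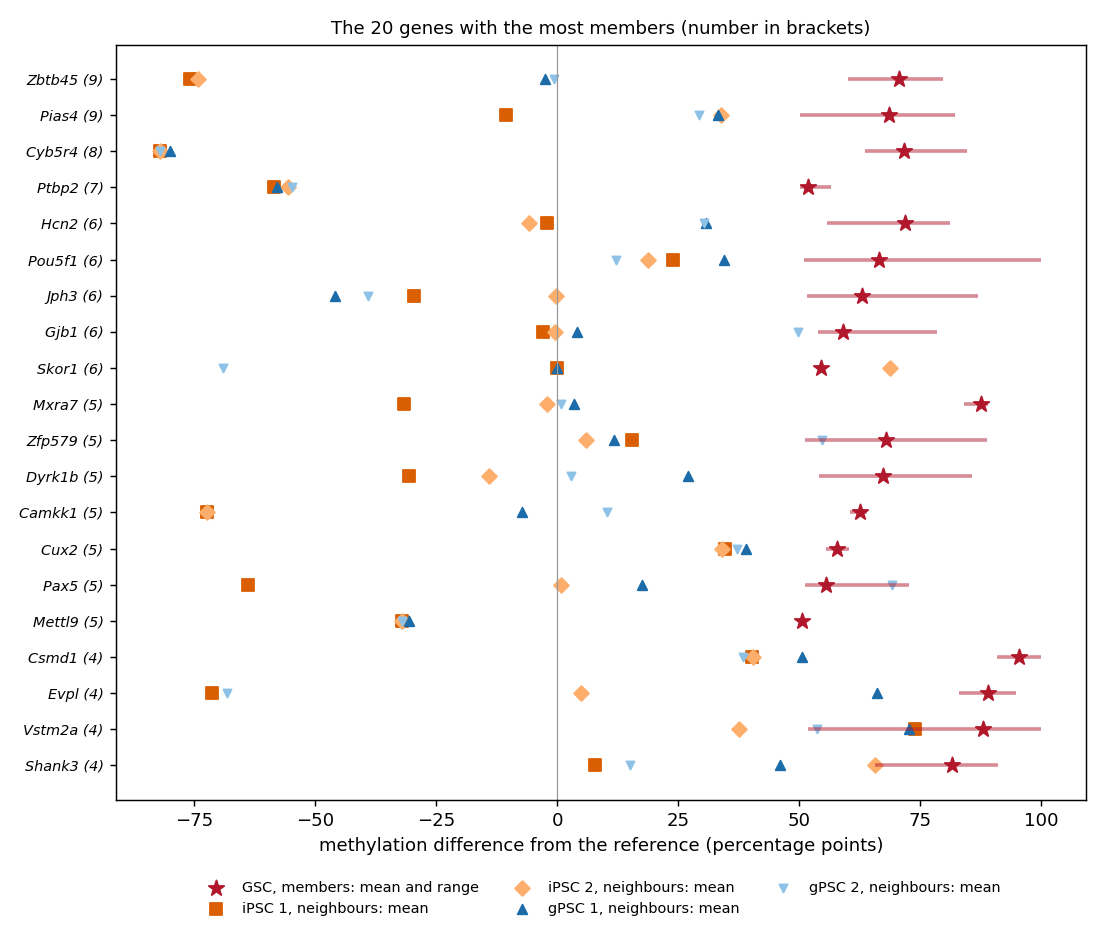
Methylation difference from the reference (percentage points, x axis) for the 20 genes with the most members (y axis, number of members in brackets); stars and bars are the mean and range of the members in GSC, and the other symbols are the mean over members of the listed neighbours in each line. The symbols of the 4 lines lie together at Cyb5r4, Ptbp2, Cux2, Mettl9 and Csmd1 and apart at Skor1, Pax5 and Evpl.

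Members were also counted in lists of germ cell, pluripotency and developmental genes. Over all 34631 genes of the table, 994 (2.87%) contained a member or lay nearest to one. Of 30 pluripotency genes 3 did, of 34 germline genes 1, of 26 genes of spermatogonial stem cells 3, of 33 imprinted genes 4 and of 20 genes of the methylation machinery 1. Of 39 Hox genes 1 did, of 35 lineage regulators none, of 35 Wnt pathway genes 1 and of 25 collagen genes 1. No test was made on these counts. The listed counterparts are far more numerous, and more genes of each list had one, for example 8 pluripotency genes, 7 germline genes and 11 lineage regulators.

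Pou5f1, the central regulator of pluripotency, had 6 members in 4 clusters within its gene on chromosome 17, at 50.9, 51.7, 100, 52.9, 73.7 and 69.2 points in GSC. The neighbours averaged 23.8 and 18.8 points in iPSC 1 and 2, and 34.5 and 12 points in gPSC 1 and 2. The OG2 reporter carries Pou5f1 regulatory sequence in all lines, and its copies could not be told apart from the gene. Fgf4, a growth factor made by pluripotent cells, had 1 member at 61.5 points beside a GSC hypo position at -76.5 points, and its neighbours were at -78.7, -75.3, -76.8 and -63.9 points. Esrrb, an orphan nuclear receptor of the pluripotency network, had 1 at 65.2 points.

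Spo11, which makes the DNA breaks of meiosis, was the germline gene with members, 3 at 56.5 points each in its promoter by the authors' column. The neighbours were at -60.9 and 47.1 points in iPSC 1 and 2, and 42.8 and 39.7 points in gPSC 1 and 2, with 1 position in each iPSC line. Lhx1, a transcription factor gene of spermatogonial stem cells, had 3 members at 53.1, 57.9 and 69.3 points, Pax7 had 1 at 57.0 points and the member nearest to Kit lay 80668 bp away, with neighbours at 65.5, 54.9, 72.1 and 58.0 points. Among imprinted genes, Peg10 had 1 member at 85.7 points with neighbours at 55, 48.6, 55 and 54.8 points, and the member nearest to Dlk1, 6227 bp away, had 50 points with neighbours at 58.3, 53.9, 41.6 and 59.0 points. The Gnas member had 75.3 points with neighbours at -18.7, -17.0, -18.4 and -88.2 points, and the Slc38a4 member had 75.7 points. Tet3, an oxidase that removes methylation, had 1 member at 51.9 points in its promoter with neighbours at 56.1, 21.9, 33.9 and 39.6 points. Hoxd1 had 1 at 64.7 points, Fzd7, a Wnt receptor gene, 1 at 69.4 points, and Col4a2 1 at 58.8 points.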

How the data were processed

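The 5 libraries other than ESC have 2 tables each, 10 in all, of positions with more (hyper) and less (hypo) methylation. Each position has a p-value and a q-value and a methylation difference in percent points, all computed and deposited by the authors. Per the submitters' processing notes, the tools were methylKit, GATK, Bismark and Bowtie2 and the builds GRCm38 and mm10. How strands were handled is not given in the sources used here, nor is the coverage minimum. In the tables no q-value exceeded 0.01 and no absolute difference was under 25 points. The lines of a kind are separate lines per the labels. The strand column holds plus at every position.

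Members were found by position. A neighbour is a position listed in a line 1 to 50 bp from the member, and each kind of line has a mean and SD over its 2 lines. iPSC and gPSC were compared with a two-sided exact permutation test over lines, whose smallest p is 0.33. Wilson 95% intervals were used for shares. Members at most 200 bp apart were joined into clusters. The authors' gene column holds transcript accessions without names, so genes that contain a member, or else lie nearest, were taken from the RefSeq table for GRCm38.p6. Promoter sequences are RefSeq's, in GRCm38.p6. Named were the 12 clusters and 20 genes with the most members, ties going to the larger mean GSC difference, without predicted and small RNA genes, up to 4 genes of each of 9 textbook gene lists, and the 5 positions nearest to the 50-point limit on each side. The promoter windows named in the text were chosen after their values were seen.

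The members and lists were chosen with earlier results of these data known. Alternatives were other thresholds, distances, a q-value limit of 0.001, other treatment of opposite positions, and leaving out each line. The script was tested on simulated tables. Python 3.11.15, numpy 2.4.6, pandas 2.3.3, scipy 1.17.1 and matplotlib 3.10.9 were used.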

Additional observations from a re-analysis of the deposited data

Results flagged for a closer look

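At 4 of the clusters and genes with the most members, both iPSC lines had a mean neighbour difference below 0 and both gPSC lines one above 0. The difference of iPSC minus gPSC was -34.4 points at Hcn2 (chromosome 10, from 79735272), -28.7 points at Gjb1 (X chromosome, from 101384762), -19.1 points at Mxra7 (chromosome 11, from 116811434) and -37.3 points at Dyrk1b (chromosome 7, from 28185776). These differences were not tested, as 2 lines against 2 cannot reach a p under 0.05. At Mxra7 the neighbours averaged -31.6 points in iPSC 1 and -2.19 in iPSC 2, against 3.53 in gPSC 1 and 0.833 in gPSC 2, from 2 adjoining positions, the first hyper in iPSC 2, gPSC 1 and gPSC 2 and the second hypo in all 4 lines. At Dyrk1b they averaged -30.6 and -14.2 points in iPSC 1 and iPSC 2, against 27.0 and 2.72 points in gPSC 1 and gPSC 2. There the base at 28185800 was hypo in iPSC 1, iPSC 2 and gPSC 2. The next base was hyper in iPSC 2, gPSC 1 and gPSC 2. At Hcn2 position 79735283 was hyper in iPSC 1, iPSC 2, gPSC 1 and gPSC 2, at 38.8, 26.6, 31.1 and 27.6 points. At Gjb1 position 101384811 was hyper in the same lines, at 53.0, 54.3, 57.5 and 49.7 points. The neighbours of the Gjb1 members averaged -3.05 and -0.526 points in iPSC 1 and iPSC 2, against 4.16 in gPSC 1 and 49.7 in gPSC 2. The gPSC 1 mean thus lay near those of the iPSC lines, and the gPSC 2 mean rests on 1 position. No position listed in and around these 4 clusters had opposite signs in iPSC and gPSC lines.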

How the results depend on the processing

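The iPSC minus gPSC differences kept their direction under every alternative run. With the lines paired by number (replicate block) they stayed at -6.62 and -7.77 points, with a two-sided exact sign permutation p of 0.5, the smallest that 2 pairs allow; the labels do not say that the numbers pair the lines. Leaving out 1 line, with no test, they ranged from -7.68 to -3.68 and from -8.89 to -5.29 points. The number of members follows the rule: 2187 at 40 points, 568 at 70 points, 666 with neighbours within 25 bp, 2526 within 100 bp, and 2135 to 2427 with 1 line left out. The share with all-hyper neighbours in every line, 52.8%, was 63.7% at 70 points, 49.6% within 100 bp, 49.5% at a q-value of at most 0.001, 59.7% without members within 50 bp of an opposite GSC position, and 55.1% to 61.1% with 1 line left out. The promoter share, 16.4%, was 13.0% at 70 points and 12.2% without members near an opposite GSC position. Without members 1 bp from an opposite GSC position, an alternative chosen after seeing the data, these shares were 56.4% and 13.2%. The cause of these moves was not tested. Clusters numbered 1026 joined at 100 bp and 1001 at 500 bp. The depth is unknown, so what it limits at an unlisted position cannot be given.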

Other observations

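At 52 members (3.78%) the mean neighbour difference was below 0 in both iPSC lines and above 0 in both gPSC lines, against 69 listed counterparts (0.401%). These members form 27 clusters, and 18 of the 52 belong to Hcn2, Gjb1, Mxra7 and Dyrk1b, so they are not separate places. At 3 members (0.218%) it was the other way round, against 17 counterparts (0.0987%). At 2 of the 52 (0.146% of all members), all neighbours were hypo in both iPSC lines and all were hyper in both gPSC lines, against 7 counterparts (0.0406%). Both lay nearest to Foxb1, a forkhead transcription factor gene, 21 bp apart on chromosome 9 (69748592 and 69748613), with GSC differences of 50 and 51.5 points. Their neighbours averaged -29.7 points in iPSC 1 and -32.2 in iPSC 2, against 32.5 in gPSC 1 and 46.2 in gPSC 2, from 1 to 3 positions in a line. Foxb1 was singled out after its values were seen, and this difference was not tested.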
